A study of Arabidopsis thaliana with 4 samples.

Results

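The 10 genes described here act at the last steps of abscisic acid synthesis and at the first step of its breakdown. They were chosen by AGI identifier and not by a cut on their values, but with earlier results of these data known. All 10 were present among the 33602 gene IDs measured. They are NCED2 (AT4G18350), NCED3 (AT3G14440), NCED5 (AT1G30100), NCED9 (AT1G78390), ABA2 (AT1G52340), AAO3 (AT2G27150), CYP707A1 (AT4G19230), CYP707A2 (AT2G29090), CYP707A3 (AT5G45340) and CYP707A4 (AT3G19270). RNA-seq was made of whole seedlings of Arabidopsis thaliana, with 2 libraries of lux-6, whose genotype is given as lux -/- in the Col-0 ecotype, and 2 libraries of wild-type Col-0. All seedlings were raised in long days at 22 °C on MS medium containing 3% sucrose and were harvested at an age of 10 days at ZT12, which is 12 h after lights on. LUX is a DNA-binding subunit of the evening complex, a repressor of transcription active around dusk, and the series asks about this complex in leaf senescence. The labels do not say what lesion lux-6 carries or how many seedlings made up a library.

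Abscisic acid is a hormone of water deficit, seed dormancy and leaf senescence. It is made from carotenoids: NCED enzymes cleave 9-cis-epoxycarotenoids to xanthoxin in the plastid, the step that usually limits the rate, ABA2 converts xanthoxin to abscisic aldehyde, and AAO3 oxidises the aldehyde to the hormone. CYP707A enzymes are cytochrome P450 8'-hydroxylases that start its conversion to phaseic acid, so the level of the hormone depends on both families. In vegetative tissue NCED3 is the main NCED gene under water deficit, while NCED9 is best known from developing seeds and CYP707A2 from germinating seeds. CYP707A genes, CYP707A3 among them, are themselves induced by abscisic acid.

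CYP707A3 and its closest relative CYP707A1 are shown by the 250 bases before their annotated starts, because one differed clearly between the genotypes and the other did not. The sequences were read from the RefSeq gene models and genome of TAIR10.1. For CYP707A3 the window is chr5:18371022-18371271 on the minus strand, and for CYP707A1 it is chr4:10521009-10521258 on the plus strand. Both are written 5′ to 3′, with any match to a searched motif in capitals.
CYP707A3: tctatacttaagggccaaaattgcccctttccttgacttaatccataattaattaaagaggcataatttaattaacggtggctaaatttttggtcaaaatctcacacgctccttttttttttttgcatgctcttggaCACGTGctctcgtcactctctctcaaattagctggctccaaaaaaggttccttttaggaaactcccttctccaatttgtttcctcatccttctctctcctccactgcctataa
CYP707A1: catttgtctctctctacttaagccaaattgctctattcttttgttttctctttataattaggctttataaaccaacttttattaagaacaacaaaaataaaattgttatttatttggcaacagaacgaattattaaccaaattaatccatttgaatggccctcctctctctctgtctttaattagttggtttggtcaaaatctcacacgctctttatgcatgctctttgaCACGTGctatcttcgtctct
Capitals mark a G-box, CACGTG, which lies 113 bases before the start of CYP707A3 and 20 bases before that of CYP707A1. The windows share a run of 23 bases, tttggtcaaaatctcacacgctc, and closer to the start runs of 11 and 10 bases, the last of which contains the G-box. The longest run shared by any other pair of CYP707A windows was 10 bases.

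Each motif was searched on both strands of the 250-base windows of all 10 genes and of 26711 protein-coding genes. CACGTG was found before CYP707A1, CYP707A3 and NCED9, and in 6.58% of all windows. The core of the abscisic acid response element, ACGTG, lies inside CACGTG and was therefore also found before these 3 genes, and without a G-box before CYP707A4. It was present in 23.1% of all windows. The LUX sites GATTCG and GATACG were both found before ABA2, and GATACG before CYP707A2. They occurred in 7.88% and 4.63% of all windows. The evening element AAATATCT was found before NCED2 and in 4.84% of all windows, and CCGAC, the core of the drought and cold response element, before ABA2 and in 11.9%. None of these letters was found before NCED3, NCED5 or AAO3.

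The coding sequences of paralogues differed at many positions. CYP707A1 and CYP707A3 were the nearest pair, with 82.5% identity over 1389 aligned bases. The other CYP707A pairs had between 62.3% and 64.8%, and the NCED pairs between 66.9% and 71.4%. The longest identical run in any pair was 44 bases, between CYP707A1 and CYP707A3. The stretch of 90 coding bases around it, positions 1019 to 1108 of each coding sequence, is given with the 8 differing bases in capitals, to show where reads of these genes could be confused.
CYP707A3: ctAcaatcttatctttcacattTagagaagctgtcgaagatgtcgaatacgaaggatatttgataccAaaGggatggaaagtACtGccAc
CYP707A1: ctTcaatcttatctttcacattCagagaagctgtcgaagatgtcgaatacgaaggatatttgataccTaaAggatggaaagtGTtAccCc
Outside such stretches, differences are frequent, and the read length is not given in the sources used here. ABA2 and AAO3 overlap annotated genes on the other strand, and whether the libraries kept strand is not stated. Reads from the overlapping stretches therefore cannot be assigned to either gene with certainty, and the length of the overlap was not computed.

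Levels are in FPKM, that is, fragments divided by gene length and by the size of the library. The library totals worked back from low FPKM values lay between 10735709 and 11198704 fragments. The LUX transcript (AT3G46640) was at 34.8 and 35.3 FPKM in lux-6, against 57.0 and 73.9 FPKM in Col-0, and did not pass the test over all genes (limma, adjusted p = 0.187). Col-0 replicate 2 was unlike the other 3 libraries. Pearson's r of log2(FPKM + 1) across genes, which are not independent replicates, was 0.984 between the lux-6 libraries and 0.909 between the Col-0 libraries. Plastid-encoded genes held 0.0698% and 0.0530% of the summed FPKM in lux-6, against 0.0525% and 3.09% in Col-0. Fold changes of NCED3, ABA2, AAO3, CYP707A1 and CYP707A3 are therefore also given without Col-0 replicate 2. Those of genes outside the members are not. The labels name the 2 libraries of a genotype as biological replicates but do not describe separate cultures, and p-values measure the spread between these libraries.

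Of the 10 genes, 6 averaged 1 FPKM or more across all 4 libraries and were tested together with 19592 genes in all. NCED2, NCED5, NCED9 and CYP707A4 were below this level and are given as values with no test. CYP707A3 rose in lux-6 and was the only one of the 6 to pass in the limma fit (adjusted p at most 0.05). Of all tested genes 0.286% passed upwards and 0.0051% downwards. The lux-6 values both exceeded the Col-0 values for NCED3 and CYP707A3 among the 6, and for 26.1% of all tested genes. None of the 6 had both lux-6 libraries below both Col-0 libraries, against 22.8% of all tested genes. The median log2 fold change was 0.56 over the 6 genes and 0.05 over all tested genes. In whole seedlings, less RNA per cell and fewer cells of a type cannot be told apart.

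**Figure D1:**
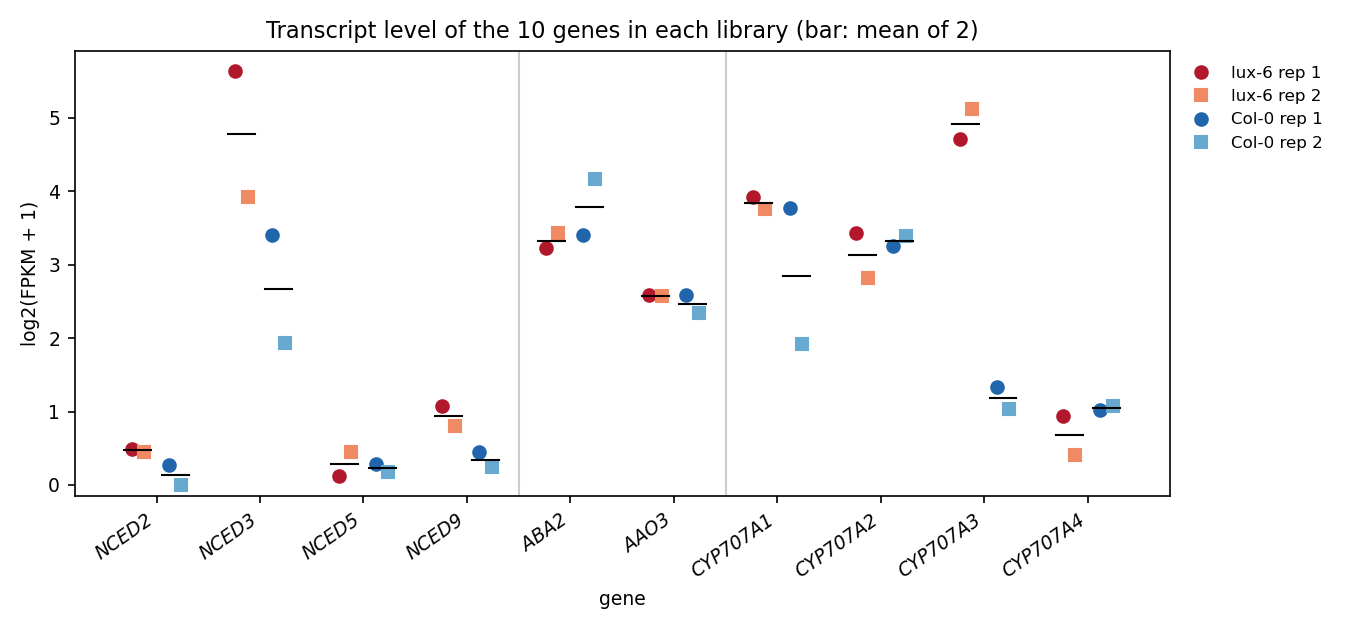
Transcript level of the 10 genes as log2(FPKM + 1) in each library, lux-6 in red and Col-0 in blue, with circles for replicate 1, squares for replicate 2 and a bar at the mean of 2 libraries. CYP707A3 lies at 25.2 and 33.6 FPKM in lux-6, against 1.53 and 1.05 FPKM in Col-0, while ABA2, AAO3, CYP707A1 and CYP707A2 overlap between the genotypes.

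The NCED genes, which catalyse the cleavage step, were led by NCED3 in every library. Replicates 1 and 2 had 48.5 and 14.1 FPKM of NCED3 in lux-6, against 9.54 and 2.82 FPKM in Col-0. Both lux-6 libraries were above both Col-0 libraries, but lux-6 replicate 2 was closer to Col-0 replicate 1 than to lux-6 replicate 1. The values rest on 1231 and 350 fragments in lux-6 and 243 and 73 in Col-0. The means were 31.3 ± 24.4 FPKM in lux-6 and 6.18 ± 4.75 FPKM in Col-0 (SD, n = 2 each). On the log2(FPKM + 1) scale, which understates the change of low genes, the fold change was 2.11 with a standard error of 0.74 and a 95% interval of 0.19 to 4.03. It did not pass over all genes (limma, unadjusted p = 0.0370, adjusted p = 0.371). It was 1.38 without Col-0 replicate 2 and 1.25 without lux-6 replicate 1, and neither passed (limma, adjusted p = 0.396 and 0.9996). Without Col-0 replicate 1 it was 2.84 and passed (limma, adjusted p = 0.0184), in a fit that takes its spread from the lux-6 pair.

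NCED3 differed between replicates by about as much in each genotype. Replicate 1 was 3.44 times replicate 2 in lux-6 and 3.38 times replicate 2 in Col-0. In lux-6, 99.8% of tested genes had a smaller difference between the replicates on the log2 scale, and in Col-0, 95.5% had. CYP707A3 ran the other way in lux-6, with replicate 1 at 0.75 times replicate 2. The labels give the replicates no shared day or batch.

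**Figure D2:**
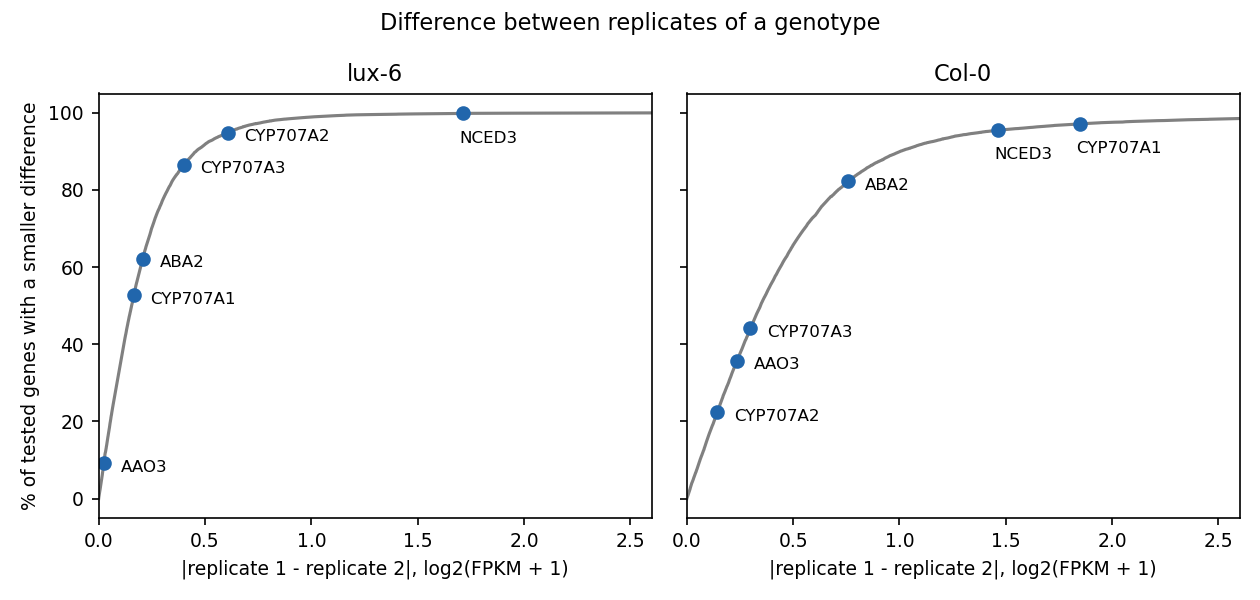
Share of tested genes, in percent, whose 2 replicates differ by less than the difference on the x axis, in log2(FPKM + 1), for lux-6 on the left and Col-0 on the right, with the 6 tested genes as points. NCED3 lies above 99.8% of genes in lux-6 and above 95.5% in Col-0, and CYP707A1 above 52.7% in lux-6 and 97.1% in Col-0.

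The other NCED genes were near the lower end of detection. NCED9, best known from seeds, was at 1.104 and 0.752 FPKM in lux-6, against 0.366 and 0.180 FPKM in Col-0, from about 24 and 16 fragments in lux-6 and 8 and 4 in Col-0. NCED2 was at 0.406 and 0.363 FPKM in lux-6, from 8 and 7 fragments, against 0.202 FPKM from 4 fragments and 0 in Col-0. For both genes the lux-6 libraries were above the Col-0 libraries, at levels below those tested. NCED5, which acts beside NCED3 under water deficit, was at 0.0900 and 0.368 FPKM in lux-6 and at 0.224 and 0.132 FPKM in Col-0, and the genotypes overlapped. NCED3 made up 96.8% and 90.5% of the summed NCED level in lux-6 replicates 1 and 2, against 92.3% and 90.02% in Col-0.

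Seed and embryo markers moved in the same direction as NCED9. All 10 genes of that list were higher in both lux-6 libraries, against 26.1% of all tested genes, with a summed level of 2081 and 2193 FPKM in lux-6, against 239 and 20.4 FPKM in Col-0. The storage protein genes SESA3, SESA4, SESA5 and CRU2 passed in limma, where 0.286% of all tested genes passed upwards, and limma-voom called 1 of the 10. SESA4 and CRU2 were at 0 in Col-0 replicate 2. The part of seed-derived RNA in the values of NCED9 was not tested.

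ABA2 and AAO3, which complete the synthesis, showed no difference that held up against the spread. ABA2, a short-chain dehydrogenase, was at 8.33 and 9.77 FPKM in lux-6, against 9.60 and 16.9 FPKM in Col-0. Only Col-0 replicate 2 lay apart, and the genotypes overlapped. The fold change was -0.46 on the log2 scale with a 95% interval of -1.24 to 0.33 (limma, adjusted p = 0.559), and -0.08 without Col-0 replicate 2. Without Col-0 replicate 1 it was -0.84, in a fit that takes its spread from the lux-6 pair and whose calls are not read as evidence.

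AAO3, the aldehyde oxidase of the final step, was at 5.03 and 4.93 FPKM in lux-6, against 4.99 and 4.09 FPKM in Col-0. These values lay close together in 3 of the 4 libraries. The fold change was 0.12 with a 95% interval of -0.44 to 0.67 (limma, adjusted p = 0.823), and its sign turned to -0.0027 without Col-0 replicate 2. The interval leaves room for a moderate change in either direction.

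**Figure D3:**
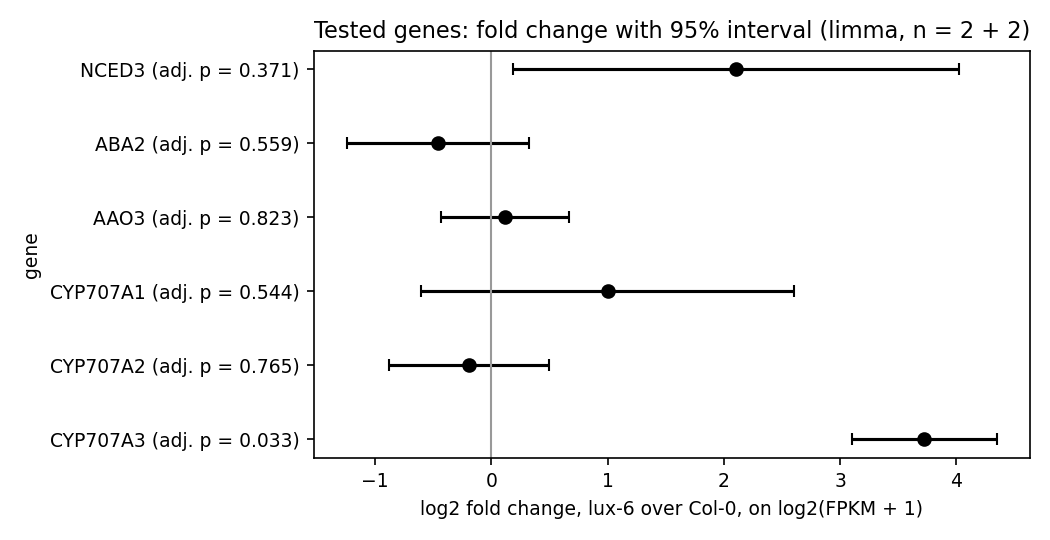
Fold change of lux-6 over Col-0 on the log2(FPKM + 1) scale for the 6 tested genes, with 95% intervals from limma (2 libraries per genotype) and adjusted p over all tested genes. The interval of CYP707A3 runs from 3.10 to 4.35 and that of NCED3 from 0.19 to 4.03, and those of the other 4 include 0.

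In the CYP707A family, which starts the breakdown of the hormone, CYP707A3 rose. It was at 25.2 and 33.6 FPKM in lux-6, against 1.53 and 1.05 FPKM in Col-0, from about 565 and 736 fragments in lux-6 and 34 and 24 in Col-0. Both lux-6 libraries were far above both Col-0 libraries. The difference between the lux-6 replicates was larger than for 86.6% of tested genes. The means were 29.4 ± 5.93 FPKM in lux-6 and 1.29 ± 0.334 FPKM in Col-0 (SD, n = 2 each), a ratio of 22.8. The log2 fold change was 3.72 with a standard error of 0.24 and a 95% interval of 3.10 to 4.35 (limma, adjusted p = 0.0330). It was the 29th largest increase among the 19592 tested genes.

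The size of this increase held with each library left out, and the call did not always hold. Without Col-0 replicate 2 the log2 fold change was 3.57, and without Col-0 replicate 1 it was 3.87. With only 1 Col-0 library in these fits, their variance comes from the lux-6 replicates, and their calls are not read as evidence. Without lux-6 replicate 1 or lux-6 replicate 2 it was 3.92 and 3.52, with adjusted p = 0.443 and 0.422 in limma, in fits that take their spread from the Col-0 pair and call no gene at all. The call was also lost with a pseudocount of 0.1 (4.41, limma adjusted p = 0.0526) and with no filter on low values (limma adjusted p = 0.0865). On fragments with limma-voom CYP707A3 passed at a log2 fold change of 4.51 (adjusted p = 0.0361), where 0.478% of genes were called.

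CYP707A1, its nearest paralogue, was at 14.2 and 12.6 FPKM in lux-6, against 12.6 and 2.78 FPKM in Col-0. Col-0 replicate 1 matched the lux-6 libraries and Col-0 replicate 2 alone was low. The fold change was 1.003 on the log2 scale with a standard error of 0.62 (limma, adjusted p = 0.544). It was 0.08 without Col-0 replicate 2 (limma, adjusted p = 0.889) and 1.93 without Col-0 replicate 1, where it passed (adjusted p = 0.00130). The call for CYP707A1 therefore rested on Col-0 replicate 2 being the only Col-0 library in the fit.

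CYP707A2, known from germinating seeds, was at 9.79 and 6.08 FPKM in lux-6, against 8.50 and 9.49 FPKM in Col-0, and the genotypes overlapped. Its fold change was -0.19 with a 95% interval of -0.88 to 0.50 (limma, adjusted p = 0.765). CYP707A4 was at 0.920 and 0.332 FPKM in lux-6, against 1.02 and 1.11 FPKM in Col-0, from 17 and 6 fragments in lux-6 and 19 and 21 in Col-0. Both lux-6 libraries were lower, but lux-6 replicate 1 was nearer to the Col-0 libraries than to lux-6 replicate 2.

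The make-up of the family within a library does not depend on the scaling between libraries. CYP707A3 contributed 50.3% and 63.9% of the summed CYP707A level in lux-6, against 6.46% and 7.30% in Col-0. In lux-6 it was the highest member of the family in both libraries, followed by CYP707A1, CYP707A2 and CYP707A4. In Col-0 the highest was CYP707A1 in replicate 1, with 53.3%, and CYP707A2 in replicate 2, with 65.8%. CYP707A3 stood at 1.77 and 2.67 times CYP707A1 in lux-6, against 0.121 and 0.380 times in Col-0.

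**Figure D4:**
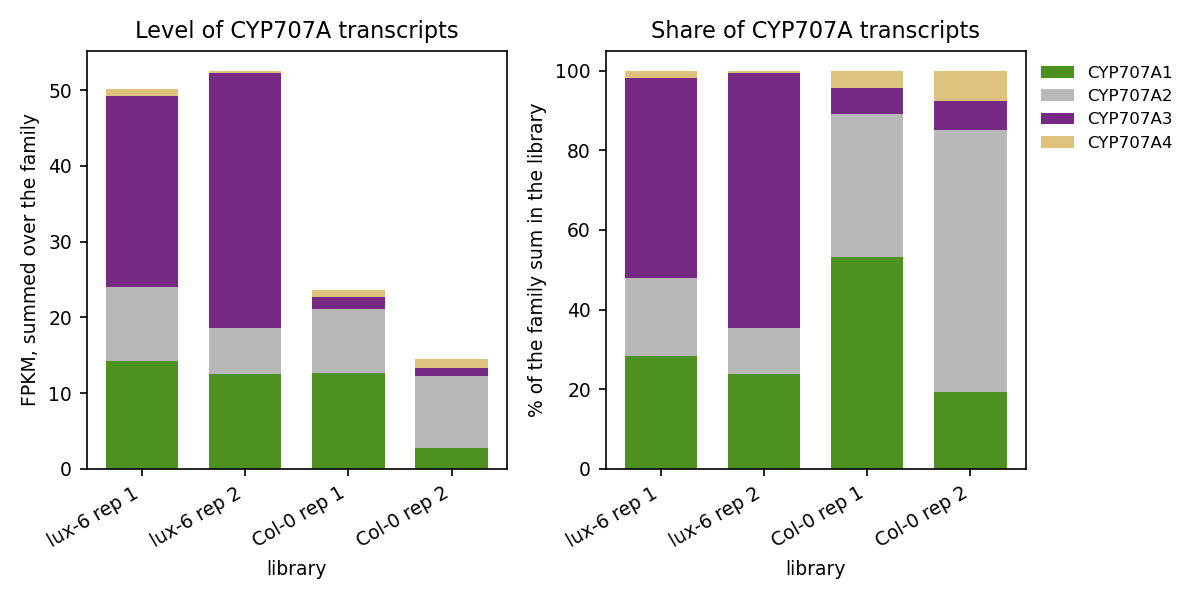
Level in FPKM on the left and share of the family sum in percent on the right of the 4 CYP707A transcripts in each library, lux-6 before Col-0. CYP707A3 makes up 50.3% and 63.9% of the sum in lux-6, against 6.46% and 7.30% in Col-0, and without it the sums are 24.9 and 19.0 FPKM in lux-6 and 22.1 and 13.4 FPKM in Col-0.

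Summed over each family, NCED and CYP707A transcripts were both higher in the lux-6 libraries, and these sums were not tested. The summed CYP707A level was 50.1 and 52.6 FPKM in lux-6, against 23.7 and 14.4 FPKM in Col-0. Without CYP707A3 it was 24.9 and 19.0 FPKM in lux-6, against 22.1 and 13.4 FPKM in Col-0, and the genotypes overlapped. The summed NCED level was 50.1 and 15.6 FPKM in lux-6, against 10.3 and 3.13 FPKM in Col-0. NCED3, which did not pass, made up at least 90.02% of it in every library. ABA2 and AAO3 together were at 13.4 and 14.7 FPKM in lux-6, against 14.6 and 21.0 FPKM in Col-0, and the genotypes overlapped. The ratio of summed NCED to summed CYP707A was 1.0002 and 0.296 in lux-6 and 0.437 and 0.217 in Col-0, so that the genotypes overlapped in this ratio. NCED3 was at 1.93 and 0.420 times CYP707A3 in lux-6, against 6.25 and 2.67 times in Col-0. Transcript ratios are not measurements of the hormone, which was not measured here.

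The tested genes nearest to CYP707A3 in profile were TCH3 (AT2G41100), a calmodulin-like gene induced by touch, PUP18 (AT1G57990) and AT1G15010. Likeness was the root mean square difference of centred log2(FPKM + 1) over the 4 libraries, and it was 0.21, 0.23 and 0.25 for these genes. TCH3 was at 146 and 197 FPKM in lux-6, against 13.8 and 15.4 FPKM in Col-0. The genes nearest to NCED3 were OZF1 (AT2G19810), AT1G15405 and AT2G38790, at 0.23, 0.24 and 0.27. OZF1 was at 68.0 and 29.8 FPKM in lux-6, against 20.4 and 6.12 FPKM in Col-0. All these genes were picked for likeness in the same 4 libraries, so a shared direction and replicate order follow from the choice.

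The rest of the pathway held no gene past the test. In lists of other synthesis and conjugation steps, receptors, transporters, regulators and response genes, 42 of 52 genes were tested. None was called by limma, where 0.286% of all tested genes passed upwards and 0.0051% downwards, or by limma-voom, where 0.478% were called. With shares this small, the lack of a call among the 42 does not show that they were unchanged. In limma 5 of the 42 had an unadjusted p under 0.05, against 12.3% of all tested genes. Both lux-6 libraries were above both Col-0 libraries for 18 of the 42 and below for 2, against 26.1% and 22.8% of all tested genes. The median log2 fold change was 0.46, and 0.05 over all tested genes. On this scale, replicate 1 of Col-0 exceeded replicate 2 by a median of 0.59 over the 42 and 0.14 over all tested genes.

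Among other synthesis and conjugation genes, with a median of 0.38 over 10 tested, the smallest p belonged to UGT71B6 (AT3G21780), which encodes an abscisic acid glucosyltransferase, and NPQ1 (AT1G08550), the violaxanthin de-epoxidase. UGT71B6 was at 3.97 and 3.12 FPKM in lux-6, against 2.25 and 1.02 FPKM in Col-0 (limma, adjusted p = 0.424). NPQ1 was at 53.0 and 50.4 FPKM in lux-6, against 64.5 and 73.0 FPKM in Col-0 (limma, adjusted p = 0.428). Each separated the genotypes without passing the test.

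Of the 14 PYR/PYL receptor genes, 8 were tested, and 6 of these were higher in both lux-6 libraries, against 26.1% of all tested genes. PYL7 (AT4G01026) was at 15.6 and 14.1 FPKM in lux-6, against 8.87 and 6.20 FPKM in Col-0 (limma, adjusted p = 0.232). PYL5 (AT5G05440) was at 11.4 and 32.1 FPKM in lux-6, against 6.52 and 7.01 FPKM in Col-0 (limma, adjusted p = 0.367), and its lux-6 replicates were in the opposite order to those of NCED3. The exporter gene DTX50 (AT5G52050) was at 16.01 and 14.8 FPKM in lux-6, against 5.35 and 6.81 FPKM in Col-0 (limma, adjusted p = 0.110). The transporter gene ABCG25 (AT1G71960) was at 18.01 and 17.5 FPKM in lux-6, against 15.8 and 10.5 FPKM in Col-0 (limma, adjusted p = 0.513).

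Of 5 tested regulators, NAP and MYB96 had the smallest p. NAP (AT1G69490), a NAC factor of leaf senescence known to activate AAO3, was at 38.0 and 12.2 FPKM in lux-6, against 1.81 and 0.812 FPKM in Col-0 (limma, log2 fold change 3.33, adjusted p = 0.120). AAO3 itself stayed between 4.09 and 5.03 FPKM in these libraries. MYB96 (AT5G62470), a factor of drought responses, was at 48.0 and 29.1 FPKM in lux-6, against 12.5 and 8.70 FPKM in Col-0 (limma, adjusted p = 0.132).

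The 16 genes that respond to abscisic acid were tested in full, with a median log2 fold change of 0.56. None passed in limma, against 0.286% upwards and 0.0051% downwards of all tested genes. None had an unadjusted p under 0.05 in limma, against 12.3% of all tested genes. RD26 (AT4G27410), a NAC factor of drought responses, was at 76.8 and 22.5 FPKM in lux-6, against 18.6 and 11.6 FPKM in Col-0 (adjusted p = 0.439 in limma). The late response gene RD29B (AT5G52300) was at 89.4 and 64.7 FPKM in lux-6, against 42.2 and 4.06 FPKM in Col-0 (limma, adjusted p = 0.442). The summed level of the list was 1876 and 1419 FPKM in lux-6, against 1858 and 746 FPKM in Col-0, so that Col-0 replicate 2 alone stood low.

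Markers of tissues in which NCED3 and CYP707A genes are active were compared in the same libraries. The 7 phloem and xylem genes had a summed level of 230 and 211 FPKM in lux-6, against 191 and 126 FPKM in Col-0. None of the 7 passed in limma, against 0.286% upwards and 0.0051% downwards of all tested genes. Both lux-6 libraries were above both Col-0 libraries for 3 of the 7, against 26.1% of all tested genes. All 7 were higher in Col-0 replicate 1 than in Col-0 replicate 2, against 61.8% of all tested genes. Of these, SUC2 (AT1G22710), a phloem sucrose transporter, was at 99.7 and 83.8 FPKM in lux-6, against 69.2 and 49.0 FPKM in Col-0 (limma, adjusted p = 0.384). The xylem protease gene XCP2 (AT1G20850) was at 44.5 and 41.0 FPKM in lux-6, against 35.9 and 22.1 FPKM in Col-0 (limma, adjusted p = 0.463). The 5 guard cell genes summed to 68.7 and 55.1 FPKM in lux-6, against 75.9 and 133 FPKM in Col-0, with MYB60 (AT1G08810) at 3.99 and 5.13 FPKM in lux-6 and 9.63 and 12.9 FPKM in Col-0 (limma, adjusted p = 0.172). The potassium channel gene KAT1 (AT5G46240) was at 5.58 and 5.41 FPKM in lux-6, against 10.3 and 10.2 FPKM in Col-0 (limma, adjusted p = 0.195). MYB60 and KAT1 thus lay below Col-0 in lux-6 without passing. Of the 5 guard cell genes, 3 were lower in both lux-6 libraries, against 22.8% of all tested genes. The 5 root genes summed to 2639 and 3007 FPKM in lux-6, against 2972 and 1449 FPKM in Col-0, and the 5 leaf genes to 13395 and 12759 FPKM in lux-6, against 16518 and 27285 FPKM in Col-0. In the leaf list the antenna gene LHCB1.1 (AT1G29920) rose, with 336 and 264 FPKM in lux-6, against 39.5 and 40.2 FPKM in Col-0 (limma, adjusted p = 0.0330). Of all tested genes 0.286% passed upwards. The leaf list was not of one direction. In both lux-6 libraries 3 of its 5 genes were higher and 2 lower, against 26.1% and 22.8% of all tested genes. The Rubisco small subunit gene RBCS2B (AT5G38420) was at 1787 and 1658 FPKM in lux-6, against 3740 and 5254 FPKM in Col-0 (limma, adjusted p = 0.285), and RBCS1A was also lower. None of the 22 genes in these 4 lists was at 0 in any library, and their part in the values of NCED3 and CYP707A3 was not tested.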

How the data were processed

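Seedling mRNA of 2 lux-6 and 2 Col-0 libraries was analysed, grouped by title. Each library has its own file, in which the values deposited by the authors are FPKM, per the file headers. TopHat2 2.0.12 and TAIR10 appear, with no role stated, per the submitters' processing notes. For the counting tool, the gene lengths and any filter, the sources used here give nothing. The genes, lists and tests were chosen with earlier results of these data known.

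Genes averaging 1 FPKM or more were fitted on the log2(FPKM + 1) scale by limma 3.58.1 (R 4.3.3), using its mean-variance trend and a single term for genotype. P-values are two-sided, adjusted by Benjamini-Hochberg over all tested genes, with a threshold of 0.05. Exact permutation of 2 against 2 libraries has a smallest two-sided p of 0.333. The fitting code was tested on simulated data with known answers. Library totals were worked back from genes with 1 fragment, and fragments from FPKM, total and a length near that of the TAIR10.1 model (RefSeq). They were whole within 0.002 for 82.9% of genes. For AAO3, CYP707A3 and LUX they were not and were estimated from the annotated length.

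All 10 members were named. Of each other list, up to 4 members past the test were named, or the 2 with the smallest p. The exception is the root list, given as sums. Protein identity was not computed, and coding sequences were aligned with Biopython 1.88 instead. Alternatives were another pseudocount and other filters, 2 other scalings, a replicate block, limma-voom and each library left out.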

Additional observations from a re-analysis of the deposited data

How the results depend on the processing

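CYP707A3 kept its direction under all alternatives, with a log2 fold change of 4.41 and 3.72 where the call was lost, with a pseudocount of 0.1 and with no filter. Without each library in turn it ranged from 3.52 to 3.92. The number of genes past the test was unstable. It was 0 higher and 0 lower with a pseudocount of 0.1 or no filter, 97 and 3 with a mean of at least 5 FPKM, 95 higher with median-of-ratios scaling, 95 and 3 without organelle genes, and 90 and 3 with limma-voom. With a library left out it ranged from 0 to 4244 higher and from 0 to 2374 lower. Of the members 0 passed with a pseudocount of 0.1 or no filter, and between 0 and 4 with a library left out. With a library left out, the largest of these counts, higher, lower and among members, all came from the fit without Col-0 replicate 1. The members called there were thus called in the fit that called the most genes of all. That fit takes its spread from the lux-6 pair, so its calls are not read as evidence for single members. The cause of the unstable counts was not tested.

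Replicate differences of lux-6 and Col-0 correlated at -0.03 across genes. The labels name no batch shared by libraries of the same replicate number, so whether the numbers pair the libraries cannot be told. With a replicate block, 332 genes were higher and 8 lower, and 2 members passed, CYP707A3 and NCED3 (log2 fold change 2.11, limma adjusted p = 0.0195).

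Without each library in turn the log2 fold change ranged from 1.25 to 2.96 for NCED3, from -0.84 to -0.080 for ABA2, from -0.0027 to 0.23 for AAO3, from 0.079 to 1.93 for CYP707A1 and from -0.50 to 0.11 for CYP707A2. AAO3 turned to -0.0027 without Col-0 replicate 2, and CYP707A2 to 0.11 without lux-6 replicate 2. The log2 ratio of means ranged from 1.21 to 3.39 for summed NCED, from 1.12 to 1.83 for summed CYP707A and from -0.14 to 1.61 for their ratio. Low fragment numbers limit NCED2, NCED5, NCED9 and CYP707A4.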

Other observations

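In lux-6, 14 of 16 abscisic acid response genes were higher in replicate 1 than in replicate 2, against 44.5% of all tested genes, with a median difference of 0.56 on the log2(FPKM + 1) scale. In Col-0 all 16 were higher in replicate 1, against 61.8% of all tested genes, with a median difference of 1.26. NCED3 was higher in replicate 1 in both genotypes, by 1.71 in lux-6 and 1.46 in Col-0. AHG3 (AT3G11410), a phosphatase gene of abscisic acid signalling chosen after its values were seen, was at 158 and 62.1 FPKM in lux-6 and at 84.5 and 45.0 FPKM in Col-0. The receptor genes did not follow this order, with 3 of 8 higher in replicate 1 in lux-6 and 2 of 8 in Col-0. CYP707A3 was lower in replicate 1 by 0.40 in lux-6 and higher in replicate 1 by 0.30 in Col-0.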
